A study of Rattus norvegicus with 8 samples.

Results

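The 8 genes described here, Agt, Ace, Agtr1a, Klk1, Bdkrb2, Edn1, Ednra and Ednrb, encode parts of the renin-angiotensin, kallikrein-kinin and endothelin systems. They were chosen by name, and every non-control probe whose RefSeq accession carries one of these symbols was taken, which gave 10 probes for 8 of the 14400 named genes on the array. The rats were F344/NSlc females aged 10 weeks, and the right kidney was profiled after removal of the other kidney (4 nephrectomized) or a sham operation (4 sham), to ask what differs in a kidney left to work alone. The design text puts sampling 2 days after surgery in both groups, whereas the sample labels give 2 days for nephrectomized and 1 day for sham kidneys. Under the sample labels, day and operation cannot be told apart. Each RNA was read on its own 1-colour array, and since the labels tie no array to an animal, the p-values reflect sample-to-sample spread, which may be technical. On both slides the nephrectomized arrays lay at positions 3 and 4 and the sham arrays at positions 1 and 2, so position and group cannot be told apart either.

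Angiotensinogen is cut to angiotensin I, the endothelial and brush-border peptidase ACE converts this to angiotensin II, and angiotensin II acts through type 1 receptors to constrict arterioles and raise tubular sodium uptake. Tissue kallikrein releases kinins from kininogens in the connecting tubule, and kinins dilate vessels and promote sodium excretion through B2 receptors. Endothelin-1 constricts vessels through the ETA receptor, whereas the ETB receptor on endothelium and collecting duct releases nitric oxide and inhibits sodium and water uptake. The 3 systems set blood flow, filtration and salt handling in the kidney.

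In the remaining kidney none of the 8 genes differed past the threshold. With limma, 0 of 8 had a Benjamini-Hochberg adjusted p under 0.05, where 1.04% of all 20925 tested features did (0.750% higher and 0.287% lower in nephrectomized kidneys). At an unadjusted p under 0.05 there were 2 of 8, Ednrb and Edn1, where 16.0% of all features passed. Of these, Edn1 was dim and met the background filter mainly through the nephrectomized arrays, where it was higher (3 of 4, against 1 of 4 sham). The groups did not overlap for 1 of 8, Bdkrb2, where 11.1% of all features did not. The differences ran from -0.23 for Ednrb to 0.37 for Agt on the log2 scale, with a median of -0.03, beside 0.01 over all tested features. All levels below are log2 signals relative to the 75th percentile of the same array, and differences are nephrectomized minus sham. In bulk kidney, fewer cells of a type and less RNA per cell cannot be told apart.

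**Figure D1:**
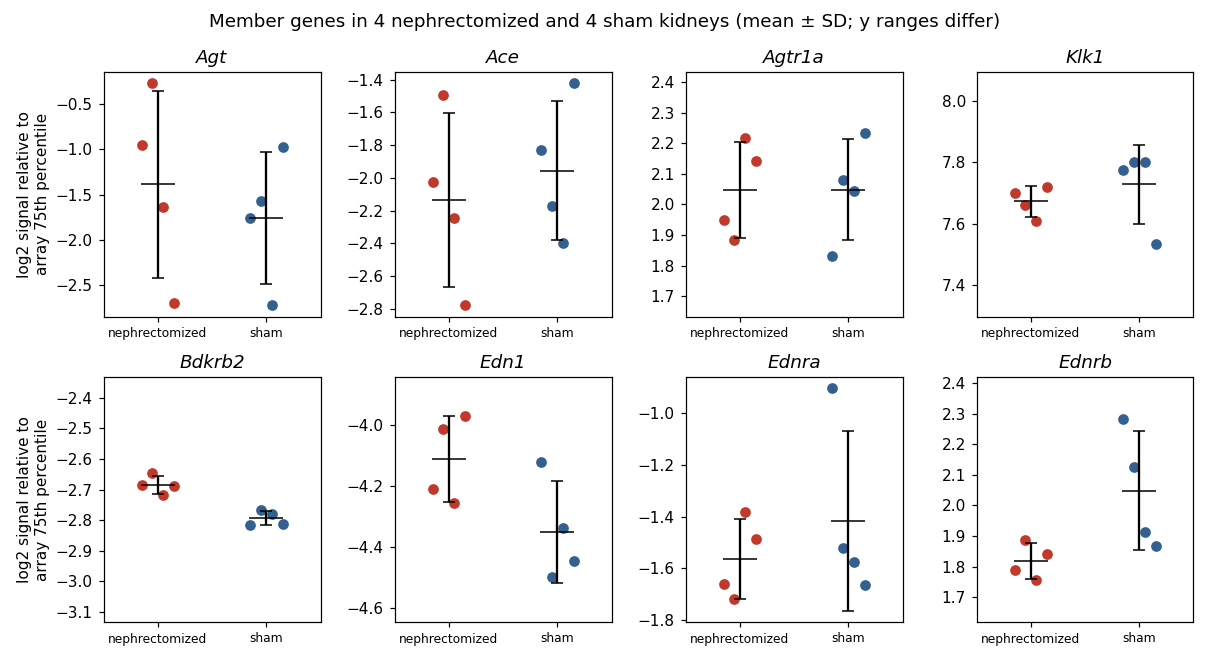
Log2 signal relative to the array's 75th percentile (y axis) for the 8 genes in 4 nephrectomized (red, left) and 4 sham (blue, right) kidneys, with points for arrays and black bars for mean ± SD. Bdkrb2 is the 1 gene without overlap, at -2.72 to -2.65 in nephrectomized and -2.81 to -2.77 in sham kidneys, while Agt and Ace spread widely in both groups.

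Agt, which encodes angiotensinogen, the precursor of all angiotensins, had levels of -0.95, -0.27, -1.63 and -2.69 in nephrectomized kidneys, against -1.76, -1.58, -2.72 and -0.98 in sham kidneys. Each group held both high and low kidneys, and the groups overlapped over most of their range. Agt averaged -1.39 ± 1.03 in nephrectomized and -1.76 ± 0.72 in sham kidneys (SD, n = 4 each). The difference was 0.37 ± 0.54 (SE; limma adjusted p = 0.785), with a 95% interval from -0.85 to 1.60. That interval spans ratios of 0.553 to 3.02, so 4 arrays a group settled neither the sign nor the size of the difference. The within-group SD of Agt, 0.891, was larger than that of 98.9% of tested features. The difference was 1.06 on slide 1 and -0.31 on slide 2.

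Ace encodes angiotensin-converting enzyme, which also degrades kinins. Its annotated upstream sequence is shown because Ace varied most of the members that have an entry among the RefSeq promoter sequences. The 250 bases before the gene start lie at chr10:91409879-91410128 on the plus strand of GRCr8, and capitals mark matches to TATAAA on the opposite strand, 42 bases before the start, and to the GC box GGGCGG at 4 places, 2 of which overlap. They follow here.
Ace: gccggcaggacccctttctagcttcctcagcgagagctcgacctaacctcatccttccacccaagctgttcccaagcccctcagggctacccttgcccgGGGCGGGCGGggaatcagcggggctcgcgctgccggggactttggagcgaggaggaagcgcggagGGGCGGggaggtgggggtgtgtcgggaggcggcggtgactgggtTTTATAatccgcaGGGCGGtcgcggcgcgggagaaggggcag
Of 33469 promoter windows of this length, 12.9% held TATAAA and 30.5% held GGGCGG on either strand, so a match is a description of the sequence and no more.

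Ace was at -2.02, -1.49, -2.24 and -2.78 in nephrectomized kidneys, against -1.83, -2.17, -2.40 and -1.42 in sham kidneys. The highest and the lowest kidney came from different groups, and the ranges overlapped from -2.40 to -1.49. The difference was -0.18 ± 0.29 (SE; limma adjusted p = 0.815), with a 95% interval from -0.85 to 0.49. It was 0.24 on slide 1 and -0.60 on slide 2.

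Agt and Ace were high and low in the same kidneys within each group. In nephrectomized kidneys both were highest in replicate 2 and lowest in replicate 4, and in sham kidneys both were highest in replicate 4 and lowest in replicate 3. Over the 8 arrays Pearson's r between them was 0.849, a description of arrays that also share their RNA and scaling. Other genes, picked after their values were seen, followed the same course. Mme, which encodes neprilysin, a brush-border peptidase that makes angiotensin 1-7, was at 3.96, 4.31, 3.73 and 2.80 in nephrectomized kidneys, against 3.73, 3.61, 3.20 and 4.38 in sham kidneys. Slc7a13, an amino acid transporter of the straight proximal tubule in rodents, was at 4.57, 4.91, 4.02 and 2.42 in nephrectomized kidneys, against 4.15, 4.01, 3.09 and 4.82 in sham kidneys. For both genes the extreme kidneys were those named for Agt and Ace. The same held for Slc5a12, a lactate transporter of the proximal tubule, at 1.398, 1.476, 1.301 and 1.105 in nephrectomized kidneys, against 1.146, 1.247, 1.144 and 1.362 in sham kidneys. Aqp1, a water channel, was also lowest in nephrectomized replicate 4 and sham replicate 3 and highest among sham kidneys in replicate 4, but highest among nephrectomized kidneys in replicate 1. Slc34a1, the phosphate transporter of the proximal tubule, did not share this course, at 7.24 to 7.52 in nephrectomized and 7.49 to 7.58 in sham kidneys. The proximal tubule markers Slc22a6, Lrp2 and Pck1 did not share it in nephrectomized kidneys. Among sham kidneys Slc22a6 and Lrp2 were lowest in replicate 3, as Agt and Ace were, at 3.19 and 6.18, but Pck1 in replicate 2. Among nephrectomized kidneys Slc22a6 was lowest in replicate 2, at 3.26, and highest in replicate 4, at 3.76. Lrp2 was also lowest there in replicate 2, and Pck1 in replicate 1. Cubn and Slc5a2 were lowest in nephrectomized replicate 4 and sham replicate 3, but highest in other kidneys than Agt and Ace. Of 9 tested proximal tubule markers 0 passed the threshold, 4 were positive and 5 negative, and their summed signal was 559 to 654 in nephrectomized and 575 to 679 in sham kidneys. Their part in the spread of Agt and Ace was not tested.

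**Figure D2:**
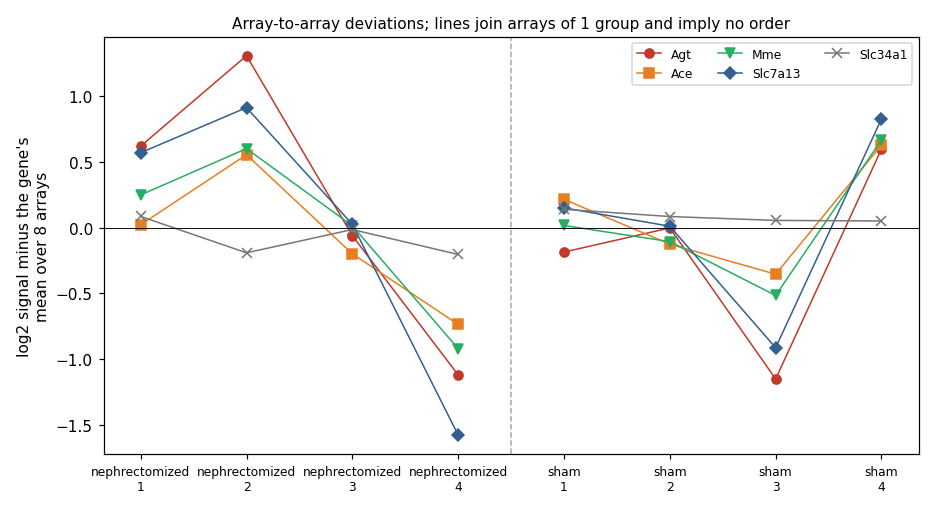
Log2 signal minus the gene's mean over 8 arrays (y axis) for Agt, Ace, Mme, Slc7a13 and Slc34a1 in each array (x axis; nephrectomized left, sham right). Agt, Ace, Mme and Slc7a13 peak in nephrectomized replicate 2 and sham replicate 4 and are lowest in nephrectomized replicate 4 and sham replicate 3, while Slc34a1 stays near 0.

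Agtr1a, the main type 1 angiotensin receptor of rodent kidney, was at 1.95, 1.88, 2.22 and 2.14 in nephrectomized kidneys, against 1.83, 2.08, 2.04 and 2.23 in sham kidneys. The groups covered the same range, with means of 2.05 ± 0.16 and 2.05 ± 0.17 (SD, n = 4 each). The difference of -0.00022 had a 95% interval from -0.24 to 0.24 (limma adjusted p = 0.999), that is, ratios of 0.844 to 1.18. Agtr1b, the second type 1 receptor gene of rodents, was at 0.14 ± 0.11 (SE; limma adjusted p = 0.570). Agtr2, the type 2 receptor, was not well above background on any array, and Mas1, the angiotensin 1-7 receptor, was so on 2 of 4 nephrectomized and 1 of 4 sham arrays, so neither was tested. Atp6ap2, an accessory subunit of the vacuolar proton pump, was at 0.10 ± 0.10 (SE).

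Of 15 tested genes of the renin-angiotensin list reported here 0 passed in either direction, 9 were positive and 6 negative, and the median was 0.03. The 4 named for their bright signal were peptidases, each with a 95% interval that includes 0. Ctsa, cathepsin A, was at 0.15, Anpep, aminopeptidase N, at -0.09, Enpep, aminopeptidase A, at -0.12 and Rnpep, aminopeptidase B, at 0.03. Prep, prolyl endopeptidase, which cuts angiotensins and kinins, did not overlap between groups, at 0.22 ± 0.06 (SE; limma adjusted p = 0.138).

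Klk1 encodes tissue kallikrein, the kinin-releasing protease of the connecting tubule. It was at 7.70, 7.66, 7.61 and 7.72 in nephrectomized kidneys, against 7.78, 7.80, 7.80 and 7.53 in sham kidneys. Of the sham kidneys 3 lay above every nephrectomized kidney and 1 lay below them all. The difference was -0.06 ± 0.07 (SE; limma adjusted p = 0.767), and its 95% interval, from -0.23 to 0.11, allows ratios of 0.855 to 1.08. Without sham replicate 4 it was -0.12, and without any other array -0.07 to -0.03. The rat genome carries several close relatives of Klk1, and without probe sequences it was not tested whether the probe also binds them. Klk1b3, Klk1c3 and Klk1c2, relatives named for their bright signal, were at -0.06, -0.02 and -0.05, and 0 of the 19 tested genes of the kallikrein list passed. Calb1, which encodes calbindin of the connecting and distal tubule, was at 4.71, 4.70, 4.85 and 4.96 in nephrectomized kidneys, against 4.38, 4.47, 4.36 and 4.16 in sham kidneys. Its difference, 0.46 ± 0.09 (SE), just missed the threshold (limma adjusted p = 0.0517, and under 0.05 in 5 of 20 alternatives that use both slides). Of 6 tested thick limb and distal tubule markers, Calb1 among them, 0 passed, 5 were positive and 1 negative. Of the other distal markers, Slc12a3 was at -0.05 and Trpv5 at 0.20 (limma adjusted p = 0.910 and 0.549), both with overlap between groups. The part of Calb1 in the Klk1 value was not tested.

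Bdkrb2 encodes the B2 receptor, through which kinins act in healthy tissue. Its main probe was at -2.69, -2.65, -2.72 and -2.69 in nephrectomized kidneys, against -2.81, -2.77, -2.78 and -2.81 in sham kidneys. All nephrectomized kidneys lay above all sham kidneys, by a small step. The difference was 0.11 ± 0.05 (SE), a ratio of 1.08, and it did not pass (limma adjusted p = 0.317). The within-group SD, 0.0265, was smaller than that of all but 0.153% of features, and limma, which shrinks such small spreads towards those of the other features, gave a 95% interval from -0.0014 to 0.22. The difference was 0.12 on slide 1 and 0.09 on slide 2. The second Bdkrb2 probe was well above background on 1 of 4 arrays in each group and was not tested. Within an array, Bdkrb2 minus Klk1 shifted by 0.16 (exact permutation p = 0.0857, two-sided, 4 against 4; adjusted 0.171 over the 4 gene pairs computed), which did not pass. It was 0.23 on slide 1 and 0.096 on slide 2.

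The genes for kinin precursors had negative differences that did not pass. Kng1 and Kng2, which encode kininogens, were at -0.39 ± 0.17 and -0.34 ± 0.17 (SE; limma adjusted p = 0.318 and 0.361), with overlap between the groups. Without sham replicate 1 they were at -0.24 and -0.19. The kininogens are close paralogs, and it was not tested whether their probes separate them. Klkb1, plasma prekallikrein, was at 0.30, 0.39, 0.18 and 0.33 in nephrectomized kidneys, against 0.91, 0.56, 0.90 and 0.48 in sham kidneys. It did not overlap between groups, and its difference was -0.41 ± 0.11 (SE; limma adjusted p = 0.122). Bdkrb1, the inducible B1 receptor, was at 0.29 ± 0.14 (SE; limma adjusted p = 0.353), well above background on 3 of 4 nephrectomized and 1 of 4 sham arrays. Xpnpep1, an aminopeptidase that degrades kinins, was at 0.16 without overlap (limma adjusted p = 0.260). Over the kallikrein list 6 genes were positive and 13 negative, with a median of -0.06, beside 10983 positive and 9942 negative over all features. This count takes Klk1, its relatives and the kininogens as separate genes, and whether their probes separate them was not tested.

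Edn1 encodes preproendothelin-1, and Ednrb the ETB receptor. Both had an unadjusted p under 0.05, with opposite signs, and their annotated upstream sequences are shown for that reason. For Edn1 that p rests on a dim signal that met the filter mainly through the nephrectomized arrays. The window of Edn1 lies at chr17:22666688-22666937 and that of Ednrb at chr15:87086766-87087015, both on the minus strand of GRCr8 and written 5′ to 3′ along the gene. Capitals in Edn1 mark TATAAA, 110 bases before the annotated start, and AGATAA on the opposite strand, 214 bases before it.
Edn1: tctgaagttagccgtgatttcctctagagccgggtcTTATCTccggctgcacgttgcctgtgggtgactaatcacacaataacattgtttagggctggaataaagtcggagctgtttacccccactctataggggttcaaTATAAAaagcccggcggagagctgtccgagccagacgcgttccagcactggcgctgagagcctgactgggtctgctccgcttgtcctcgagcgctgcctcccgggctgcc
Ednrb: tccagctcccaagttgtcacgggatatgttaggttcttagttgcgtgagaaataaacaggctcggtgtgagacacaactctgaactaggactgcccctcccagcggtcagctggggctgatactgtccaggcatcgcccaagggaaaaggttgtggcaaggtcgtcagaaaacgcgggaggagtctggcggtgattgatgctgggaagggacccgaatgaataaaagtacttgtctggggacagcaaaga
On either strand neither window held the AP-1 motif TGANTCA, found in 6.34% of all 33469 windows, nor the GC box, nor the cAMP response element TGACGTCA, found in 1.59%. Only exact matches were searched, so variants such as tgactaa in the Edn1 window were not counted, and a site is not excluded. The GATA motif AGATAA was found in 10.3% of all windows, and the Ednrb window held none of the 5 motifs searched.

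Edn1 was at -4.21, -4.01, -4.26 and -3.97 in nephrectomized kidneys, against -4.12, -4.50, -4.34 and -4.44 in sham kidneys. Sham replicate 1 lay within the nephrectomized range and the other 3 sham kidneys lay below it. The difference was 0.24 ± 0.10 (SE; limma unadjusted p = 0.0484, adjusted p = 0.308), a ratio of 1.18, and it was 0.20 on slide 1 and 0.28 on slide 2. The signal was dim, well above background on 3 of 4 nephrectomized and 1 of 4 sham arrays, so the filter was met mainly through the nephrectomized arrays. Edn3, another endothelin ligand, was also dim and varied widely, at 0.62 ± 0.78 (SE). Ece1, the enzyme that releases active endothelin from its precursor, was at 0.10 ± 0.10 (SE; limma adjusted p = 0.671).

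Ednrb was at 1.79, 1.89, 1.75 and 1.84 in nephrectomized kidneys, against 2.28, 2.13, 1.91 and 1.87 in sham kidneys. The nephrectomized kidneys sat close together at the low end, and only sham replicate 4 reached into their range. The difference was -0.23 ± 0.10 (SE; limma unadjusted p = 0.0441, adjusted p = 0.297), a ratio of 0.853, and it was -0.37 on slide 1 and -0.09 on slide 2. Without sham replicate 1 it was -0.15 (limma adjusted p = 0.438). Some endothelial markers were also lower, with Tie1 at -0.26 and Esam at -0.17, neither overlapping between groups nor past the threshold (limma adjusted p = 0.126 and 0.251). Of 9 tested endothelial markers 0 passed, 5 were positive and 4 negative, and their summed signal was 30.6 to 34.3 in nephrectomized and 28.4 to 33.6 in sham kidneys. Pecam1, the endothelial adhesion molecule CD31, was at -0.28 ± 0.18 (SE), and at -0.098 without sham replicate 2. Of 7 tested collecting duct markers 0 passed, with Aqp2, the water channel, at 0.14 ± 0.13 (SE). Their part in the Ednrb value was not tested.

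Ednra, the ETA receptor, had 2 probes. The one used for the gene was at -1.66, -1.72, -1.38 and -1.49 in nephrectomized kidneys, against -0.90, -1.52, -1.58 and -1.66 in sham kidneys. Sham replicate 1 stood above all other kidneys, and the remaining 3 lay within the nephrectomized range. The difference was -0.15 ± 0.17 (SE; limma adjusted p = 0.721), and without sham replicate 1 it was 0.025. It was -0.48 on slide 1, which holds that array, and 0.18 on slide 2. The other probe gave -0.09 ± 0.07 (SE; limma adjusted p = 0.581 with every probe tested on its own), with overlap. Markers of smooth muscle and of mesangium and pericytes, which carry ETA receptors, had 0 of 5 and 0 of 6 tested members past the threshold. Of the smooth muscle markers 3 were positive and 2 negative (median 0.03). Of the mesangium and pericyte markers 1 was positive and 5 negative (median -0.09). The part of these markers in the Ednra value was not tested. The within-array difference of Ednrb and Ednra shifted by -0.08 (exact permutation p = 0.571, two-sided, 4 against 4; adjusted 0.571), which did not pass, and it was 0.11 on slide 1 and -0.28 on slide 2. Over the endothelin list 0 of 5 tested genes passed, and the median was 0.10.

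**Figure D3:**
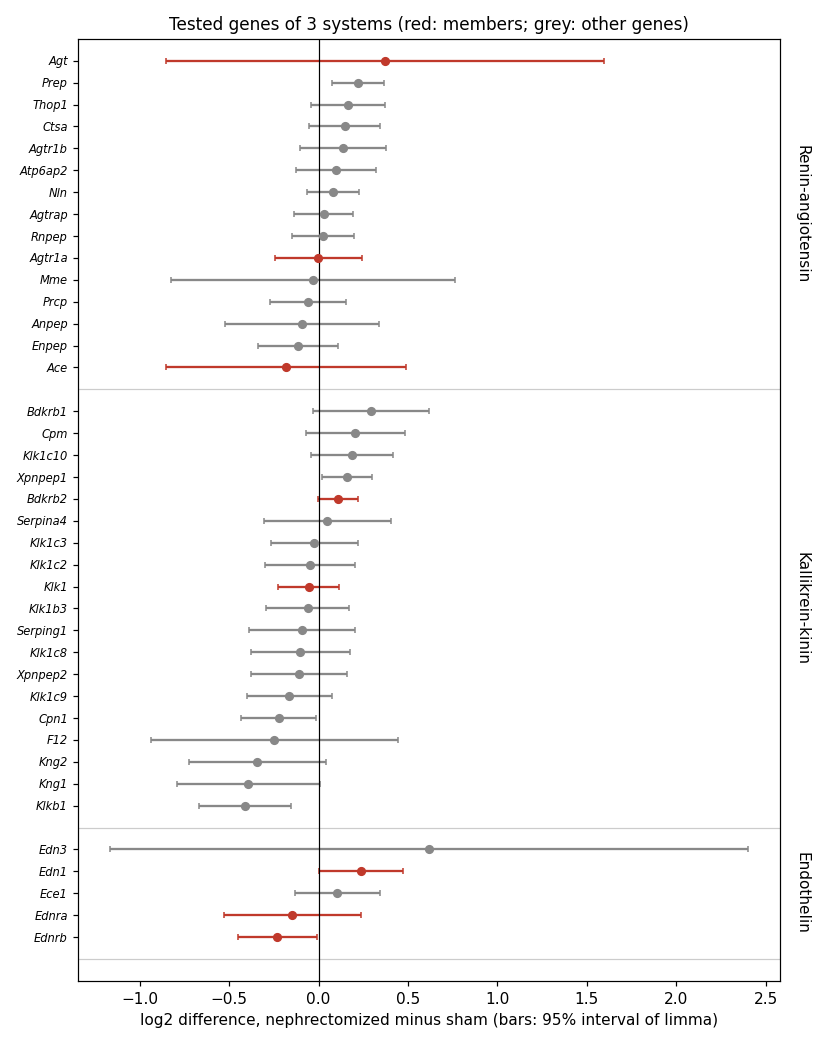
Log2 difference, nephrectomized minus sham (x axis), with 95% intervals of limma for 39 tested genes of the 3 systems, members in red and other genes in grey. Most intervals include 0, the differences run from -0.41 for Klkb1 to 0.62 for Edn3, and Agt and Edn3 have the widest intervals of the renin-angiotensin and endothelin genes.

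Beside the members, 31 tested genes of the 3 systems are reported, with 0 past the threshold, where 1.04% of all features were. At an unadjusted p under 0.05 there were 4, where 16.0% of all features passed. The groups did not overlap for 3, Prep, Klkb1 and Xpnpep1, where 11.1% of all features did not. The 31 genes ran from -0.41 to 0.62, 15 positive and 16 negative, with a median of -0.02. Downstream of angiotensin II lie the mineralocorticoid receptor and its sodium transport targets, of which 0 of 9 tested and reported passed. Nr3c2, the receptor, was at -0.14 ± 0.11, Hsd11b2, which shields it from glucocorticoids, at 0.05 ± 0.08, Sgk1, an aldosterone-induced kinase, at 0.16 ± 0.09 and Scnn1a, a sodium channel subunit, at 0.10 ± 0.07 (SE). Scnn1b, another channel subunit, was at -0.04 and Tsc22d3, a steroid-induced gene, at -0.25. Among other vasoactive genes 0 of 22 tested passed, and the brightest, the arachidonic acid hydroxylases Cyp4a3, Cyp4a8, Cyp4a1 and Cyp4a2, were at -0.07, 0.01, -0.24 and 0.11. Their sequences are alike, and it was not tested whether the probes separate them.

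The kidney markers Slc34a1, Umod and Aqp2 were well above background on all arrays, whereas the adrenal markers Cyp11b1, Cyp11b2 and Th were so on none. Another adrenal marker, Cyp17a1, a steroid hydroxylase, was well above background on 4 of 4 arrays of each group, at 0.27 (limma adjusted p = 0.196). Angiotensinogen is also made in fat and liver. The 3 tested adrenal and fat markers summed to 1.04 to 1.21 in nephrectomized and 0.989 to 1.22 in sham kidneys, and the 2 tested liver markers, Apoa1 and Fgb, to 1.18 to 1.52 in nephrectomized and 1.095 to 1.27 in sham kidneys. The liver sum was mostly Fgb, at 0.25, whereas the dim Apoa1 was at -0.20 (limma adjusted p = 0.259 and 0.636). The liver markers Apoa2, Ahsg, Serpina1 and Ttr were well above background on no array. All 6 juxtaglomerular markers tested and reported had positive differences, with a median of 0.16, and 0 passed, and their summed signal was 9.46 to 10.52 in nephrectomized and 7.88 to 9.72 in sham kidneys. Among them Gja5, a connexin, was at 0.33 (limma adjusted p = 0.173), and Akr1b7, an aldo-keto reductase, at 0.83 ± 0.96 (SE), with 0.33 to 1.77 when 1 array was left out, the highest without sham replicate 2. Of 7 tested leukocyte markers 3 fell, S100a8, S100a9 and Adgre1, the largest by 1.69 on the log2 scale (limma adjusted p = 0.0357). When each array was left out in turn, S100a8 passed in 1 of 8 fits, S100a9 in 3 and Adgre1 in 0, with all differences negative.

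The genes whose levels over the 8 arrays were most like those of each member are given by Pearson's r among 10197 other named genes, as a description. They were St6gal1 and Spetex2b for Agt (0.985 and 0.984), Hspa2 and Gpd2 for Ace (0.983 and 0.982), and Fgf13 and Bap1 for Agtr1a (0.957 and 0.944). For Klk1 they were Tlr4 and Plaur (0.968 and 0.940), and for Bdkrb2 Ttc7a and Znrf4 (0.965 and 0.962). For Edn1 they were Mxd3 and Inhba (0.956 and 0.953), for Ednra Mbip and Art3 (0.979 and 0.947), and for Ednrb Esam and Kars1 (0.962 and 0.956). Sham replicate 1 was the highest array for Ednra, Mbip and Art3 alike, at -2.70 for Mbip and -2.11 for Art3, against -3.93 and -3.89 on the next highest array. The lowest arrays were at -4.56 for Mbip and -4.61 for Art3, and Plaur lay at -4.64 to -3.68. The dimmest signals well above background were at -4.82 to -4.15 across arrays, so these 3 genes lay near background, which limits their r.

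**Figure D4:**
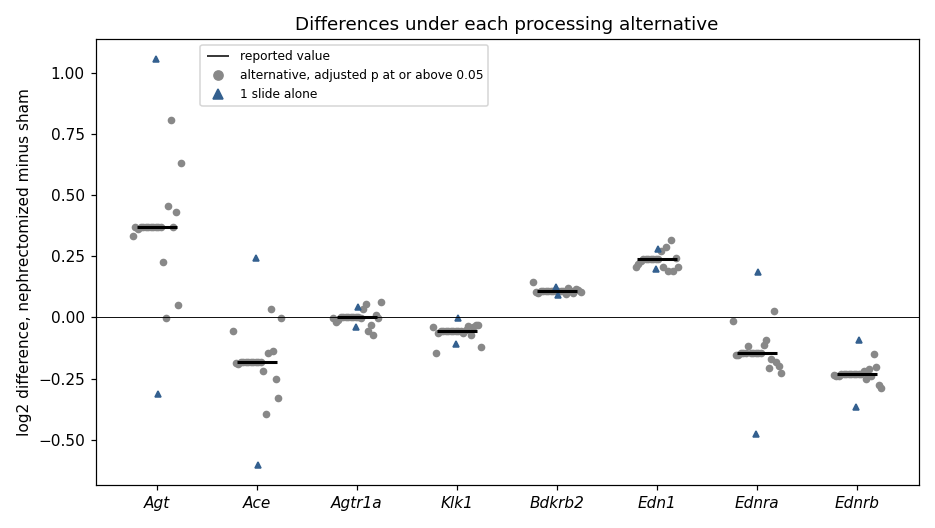
Log2 difference, nephrectomized minus sham (y axis), for the 8 genes, with a black bar for the reported value, circles for alternatives that use both slides and triangles for 1 slide alone. No alternative brought a member past the threshold, and the slides gave opposite signs for Agt, Ace, Agtr1a and Ednra.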

How the data were processed

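Each array has a scanner file from version 10.5.1.1 of Agilent's Feature Extraction software, according to its header. The deposited processed signal is an intensity, per the file headers corrected for background inside its own array only. The deposited series table holds log2 values with no description in the labels. Set against log2 scanner signals from which the array's 75th percentile and then the median of the probe were subtracted, every column had a slope of 1.00, so scale, centring and direction are known. Its column medians were 0.0012, 0.012, -0.00082 and 0.015 for nephrectomized and -0.015, -0.0023, -0.00099 and -0.0095 for sham replicates 1 to 4.

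Log2 processed signals were scaled to each array's 75th percentile (signals of 388 to 643). Control and outlier spots were left out, leaving 41012 probes, of which 59.5% to 66.0% per array were well above background and none was saturated. Probes well above background on at least 4 arrays were tested, with 1 probe a gene (highest mean), 20925 features in all. Symbols came from RefSeq accessions (GRCr8, 18713 probes). The comparison used limma 3.58.1 (R 4.3.3), with 6 residual and 2.37 prior degrees of freedom, tested on simulated data. Differences between 2 genes were compared by exact permutation over 70 assignments, adjusted over 4 pairs. The arrays lay on 2 slides, each with 2 arrays of each group, and the number of arrays limits the precision.

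The members and lists were chosen with earlier results of these data known. Named are the members, called genes and the 4 brightest of each pathway list, a fixed set of kidney genes, cell type markers where a list is described, and the 2 genes most like each member; other genes named were chosen after their values were seen. Alternatives changed the background correction, scaling, filter, probe rule, variance model, blocks, input table and arrays. The planned normexp setting used median spot signals with an offset of 50. Some genes of the lists, and 2 of the gene pairs, are not reported here.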

Additional observations from a re-analysis of the deposited data

Results flagged for a closer look

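Within groups of 4 arrays, 4 values stood apart from the other 3 by a gap above Dixon's 95% critical value, among 72 groups checked, and chance alone flags about 1 in 20 groups. Klk1 in sham replicate 4 was at 7.53, against 7.78 for the nearest sham array. That array was also the lowest sham array for Klk1b3, Klk1c3 and Klk1c2, at 7.39, 6.49 and 5.76. The same held for the distal tubule markers Calb1, Slc12a3 and Trpv5, but not for Umod, Slc12a1 and Cldn16, and the cause was not tested. Klk1c2 in nephrectomized replicate 1 was at 6.11, against 6.01 for the nearest nephrectomized array. Kng2 in nephrectomized replicate 4 was at -0.662, against -0.357 for the nearest. Cyp4a8 in sham replicate 3 was at 5.37, against 5.85 for the nearest sham array.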

How the results depend on the processing

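No member passed the threshold under any of 22 alternatives (174 values, lowest limma adjusted p 0.180), and 11 of these values turned sign. Of 612 values of 28 other genes followed, 5 passed, all for Calb1, and 28 turned sign. The count of called features, 217, was 20 with no filter, 394 with probes well above background on all 8 arrays, 363 with all 4 of a group, 532 with trended robust variance, 100 with slide as a block, and 0 by limma on slide 1 and 0 on slide 2 (1885 and 1744 at an unadjusted p under 0.05). Without 1 array it was 22 to 197, with 197 without nephrectomized replicate 1 and 55 or fewer without any other array, the lowest without sham replicate 2. With the replicate number as a block it was 10, and 0 of the 8 members and 28 other genes followed passed, while the leukocyte markers S100a8 and S100a9 passed (limma adjusted p 0.0277 and 0.0237) and Adgre1 did not (0.126). Same-numbered arrays correlated at -0.208 to 0.141 in their deviations, and not every array correlated best with its own number, so the numbers were not read as pairing the samples.

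Signs turned with normexp for Cyp4a8 (-0.11) and Cyp4a2 (-0.0065), with quantile normalization for Rnpep (-0.0025) and Cyp4a8 (-0.044), on slide 1 for Ace (0.24), Anpep (0.095) and Atp6ap2 (-0.068), and on slide 2 for Agt (-0.31), Agtr1a (0.041), Ednra (0.18), Enpep (0.067), Klk1b3 (0.031), Klk1c3 (0.14), Klk1c2 (0.095), Ece1 (-0.0035) and Cyp4a8 (-0.029). Leaving out 1 array gave -0.0016 to 0.81 for Agt, -0.39 to 0.035 for Ace, -0.072 to 0.062 for Agtr1a, -0.23 to 0.025 for Ednra, -0.22 to 0.046 for Anpep, -0.011 to 0.080 for Rnpep, -0.11 to 0.0099 for Klk1b3, -0.12 to 0.023 for Klk1c3, -0.16 to 0.013 for Klk1c2, -0.11 to 0.021 for Scnn1b, -0.11 to 0.076 for Cyp4a8, -0.042 to 0.22 for Cyp4a2 and -0.0085 to 1.13 for Edn3. The causes were not tested. Edn1 and the second Bdkrb2 probe lay near background, which limits them.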
